A study of Mus musculus with 8 samples.

Results

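The 35 genes described here encode the contractile apparatus of smooth muscle, its cytoskeletal anchors and the factors that control their transcription. They are a list of named genes, drawn up with earlier results of these data known and without a cutoff on their values, and all 35 were measured among the 18193 genes that had a probe set naming them alone. Their expression was read on 1-colour oligonucleotide arrays. All RNA came from BALB/c mice 6 to 9 days old and from their small intestine. There were 3 arrays of ICC-DMP cells, 3 arrays of ICC-MY cells and 2 arrays of tunica muscularis, the layers of muscle around the gut. The abbreviations, which the labels do not spell out, stand in this field for interstitial cells of Cajal of the deep muscular plexus (ICC-DMP) and of the myenteric plexus (ICC-MY). The sources used here state neither the isolation method, nor any pooling of animals, nor their sex.

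As background, smooth muscle shortens when myosin light chain kinase phosphorylates the regulatory light chain of myosin, and it relaxes when myosin phosphatase removes the phosphate. Its filaments are anchored in dense bodies inside the cell and in dense plaques at the membrane. Many of the genes are switched on by serum response factor and its muscle coactivator myocardin, through a DNA element called the CArG box. Interstitial cells of Cajal lie among smooth muscle cells and are held to share a mesenchymal origin with them. In the gut they set the rhythm of contraction and relay signals from nerves.

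Values are log2 expression values as deposited, and array medians lay between 4.18 and 4.31. A gene is said to pass, rise or fall where limma's fit of all 8 arrays gave an adjusted p under 0.05, and every p below is that adjusted p. Values were less spread on 2 arrays, ICC-MY replicate 1 (SD over probe sets 1.98) and tunica muscularis replicate 1 (SD 2.06), than on the rest (SD 2.22 to 2.31). Replicate correlations over genes, each read by its chosen probe set, ran from 0.981 to 0.995 within groups. Kit, the receptor that defines these cells, read 11.1, 11.3 and 10.8 in ICC-DMP and 10.8, 12.4 and 11.99 in ICC-MY, against 7.20 and 8.43 in tunica muscularis. The 6 ICC markers, Kit among them, averaged 9.78 to 10.2 in ICC-DMP and 10.4 to 11.7 in ICC-MY, against 7.90 to 8.62 in tissue. Against tissue, 4 of the 6 passed as higher in ICC-DMP (3.72% of all genes) and 5 in ICC-MY (4.05% of all genes). Of the 6, 1 was higher in ICC-DMP than in ICC-MY (Thbs4, by 2.71) and 2 were lower (Prkcq, log2 -4.52, and Edn3, log2 -3.62). Over all genes 5.36% passed as higher and 3.30% as lower there. The differences of the 6 markers went both ways, 4 below 0 and 2 above. Their median of -0.96 on the log2 scale had the sign opposite to that of the median of the contractile genes. Markers of enteric neurons averaged 3.70 to 3.80 in ICC-DMP and 3.73 to 3.76 in ICC-MY, below the array medians, against 8.13 to 8.52 in the tissue. Each sample is bulk RNA, so a larger share of cells of a type and more RNA per cell cannot be told apart.

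The stretches shown are those that hold a CArG box near the start of a gene of the set, since this is the element through which serum response factor acts. Of the 35 genes, 29 had an entry in the RefSeq table of promoter windows (build GRCm38.p6), and Actg2, Myh11, Tagln, Myocd, Tgfb1i1 and Nexn did not. The CArG box was searched on both strands in windows from 250 bases before to 50 bases after a gene's start. It was found for 7 of the 29 genes (24.1%), against 488 of all 27025 genes with a window (1.81%). Each line gives 90 bases in the direction of transcription, with the box in capitals.
Myl9: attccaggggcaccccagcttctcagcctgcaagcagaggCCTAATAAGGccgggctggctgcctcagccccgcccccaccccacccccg
Myl6: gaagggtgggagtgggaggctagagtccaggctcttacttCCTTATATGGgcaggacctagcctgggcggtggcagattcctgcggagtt
Srf: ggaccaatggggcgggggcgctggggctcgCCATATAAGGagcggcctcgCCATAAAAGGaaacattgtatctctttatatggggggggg
Fhl1: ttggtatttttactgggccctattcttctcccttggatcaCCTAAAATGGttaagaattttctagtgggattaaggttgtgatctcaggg
Vcl: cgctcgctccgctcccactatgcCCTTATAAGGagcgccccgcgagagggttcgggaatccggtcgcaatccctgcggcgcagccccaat
Ldb3: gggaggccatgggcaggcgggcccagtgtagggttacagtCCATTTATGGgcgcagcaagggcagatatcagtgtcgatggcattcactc
Dmd: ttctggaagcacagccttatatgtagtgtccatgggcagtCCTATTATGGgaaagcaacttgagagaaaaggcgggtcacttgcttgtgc

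The Myl9 stretch is chr2:156775263-156775352 on the plus strand, with its box starting 161 bases before the gene's start. The Myl6 stretch is chr10:128493010-128493099 on the minus strand, with the box at 50 bases. That of Srf, chr17:46556185-46556274 on the minus strand, holds 2 boxes, at 82 and 62 bases. The Fhl1 stretch is chrX:56779541-56779630 on the plus strand, with the box at 102 bases. The Vcl stretch is chr14:20929148-20929237 on the plus strand, with the box at 227 bases. Ldb3 has 2 annotated starts that share the box of chr14:34588667-34588756 on the minus strand, at 35 and 109 bases. The Dmd stretch is chrX:82948732-82948821 on the plus strand, with the box at 98 bases. All 7 stretches lie upstream of or around a transcription start, and a match is a description of the letters, not a binding site. Of these 7 genes, 3 were higher in ICC-DMP than in ICC-MY (Myl9, Myl6 and Ldb3), against 12 of the 22 genes whose windows held no box. Among 6-letter elements, CATTCC, the core bound by TEA-domain factors, was found on either strand for 10 of the 29 genes (34.5%) and for 16.6% of all genes, and TATAAA for 6 (20.7%) and 15.7%.

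The first comparison asks how the 2 classes of interstitial cells differ from each other. The contractile set was higher in ICC-DMP than in ICC-MY: 20 of the 35 genes rose, 0 fell and 15 did not pass. At an unadjusted p under 0.05 there were 27 of the 35, against 18.5% of all genes. Over all genes 5.36% passed as higher and 3.30% as lower. The median difference of the 35 genes was 1.39 on the log2 scale, against -0.02 over all genes. It was 1.12 with quantile normalization and 1.15 without ICC-MY replicate 1. Over the 685 genes with a mean level of 10 to 12, the median deviation of that array from the other ICC-MY arrays was -1.03. In a fit of the 9864 genes with a mean of 5 or more, 891 passed as higher and 467 as lower. Of the 35 genes, 24 were higher and 0 lower in that fit. Smooth muscle γ-actin (Actg2), myocardin (Myocd), smooth muscle myosin heavy chain (Myh11), synaptopodin 2 (Synpo2) and calponin (Cnn1) differed most, by 2.89 to 3.38 on the log2 scale. The 3 ICC-DMP arrays lay above the 3 ICC-MY arrays for 28 of the 35 genes and below them for 0, where 13.9% and 11.7% of all genes did so. Taken by replicate number, ICC-DMP was above ICC-MY for 34 of 35 genes in number 1, for 30 in number 2 and for 32 in number 3. No share of all genes was taken for these 3 counts, and number 1 holds the narrow ICC-MY array, so they describe the values only. With the replicate number as a block, 1577 calls over all genes became 2617. The count of 20 was 12 when ICC-DMP replicate 1 was left out and 12 when ICC-DMP replicate 2 was.

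**Figure D1:**
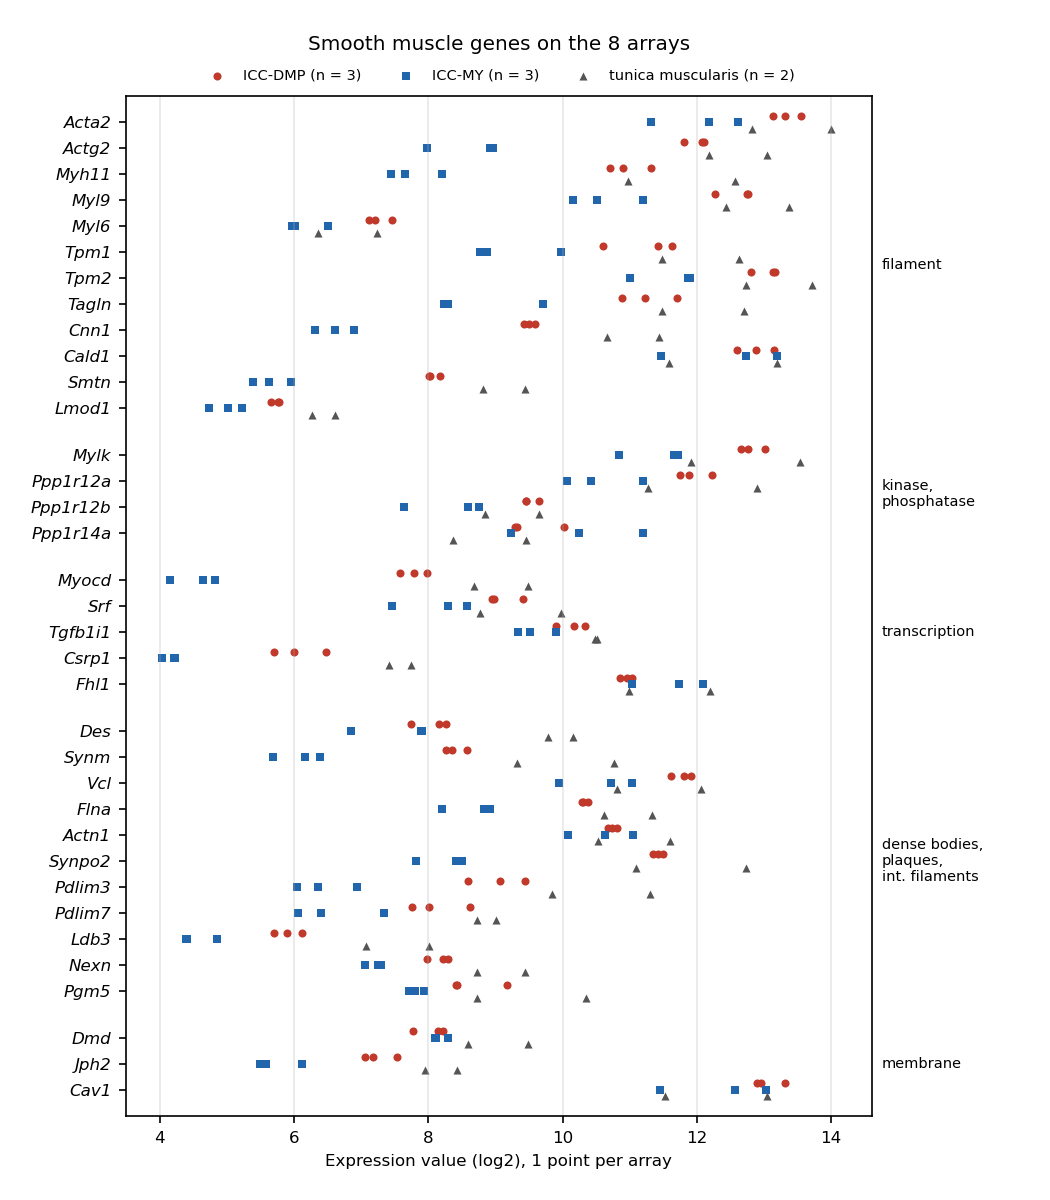
Each row is a smooth muscle gene and each point its log2 expression value (horizontal axis) on 1 of the 8 arrays, red circles for the 3 ICC-DMP, blue squares for the 3 ICC-MY and grey triangles for the 2 tunica muscularis arrays, grouped by role. The ICC-DMP points lie to the right of all ICC-MY points for 28 of the 35 genes.

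The second comparison sets ICC-DMP against the muscle coat. Of the 35 genes, 9 were lower in ICC-DMP, 0 were higher and 26 did not pass, while 7.32% of all genes passed as lower and 3.72% as higher. At an unadjusted p under 0.05 limma gave 13 of the 35, against 21.7% of all genes. Those that fell were calponin (Cnn1), smoothelin (Smtn), leiomodin (Lmod1), myocardin (Myocd), Csrp1, desmin (Des), synemin (Synm), Ldb3 and nexilin (Nexn). Their differences lay between -1.92 and -0.71 on the log2 scale, and the median of all 35 was -0.64, against -0.04 over all genes. The ICC-DMP arrays lay below both tissue arrays for 16 of the 35 genes, where 23.1% of all genes did so and 38.5% did not overlap in either direction. With the replicate number as a block 14 genes fell; the 5 added were Actg2, Pdlim3, Pdlim7, Dmd and Jph2. Tunica muscularis replicate 2 read above replicate 1 for 35 of the 35 genes, by a median of 0.99 on the log2 scale and by 0.03 to 1.63. Over all genes the median gap was 0.10 with 58.5% above 0, and over the 685 genes with a mean level of 10 to 12 it was 1.03 with 97.1% above 0, so this gap is not particular to the contractile genes. Without tissue replicate 1 the median difference of the 35 genes was -1.04, and without tissue replicate 2 it was -0.18. Each of these fits leaves 1 tissue array, so the spread between tissue arrays does not enter it. Adjusted p-values given below for fits without a tissue array carry this limit. The count of genes that fell was 4 without ICC-DMP replicate 1, 4 without replicate 2 and 5 without replicate 3.

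The third comparison sets ICC-MY against the muscle coat. Here 22 of the 35 genes were lower in ICC-MY, 0 were higher and 13 did not pass, while 9.78% of all genes passed as lower and 4.05% as higher. In limma 29 of the 35 had an unadjusted p under 0.05, against 24.6% of all genes. The median difference was -1.87 on the log2 scale, against -0.02 over all genes. Myocd, Cnn1, Pdlim3, Myh11 and Actg2 differed most, by 3.99 to 4.54 log2 units. The ICC-MY arrays lay below both tissue arrays for 28 of the 35 genes, where 20.7% of all genes did so. The 3 comparisons share arrays, so their values are not independent. By group mean, ICC-MY was lowest for 30 of the 35 genes, ICC-DMP for 2 (Fhl1 and Dmd) and tunica muscularis for 3 (Cald1, Ppp1r14a and Cav1).

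**Figure D2:**
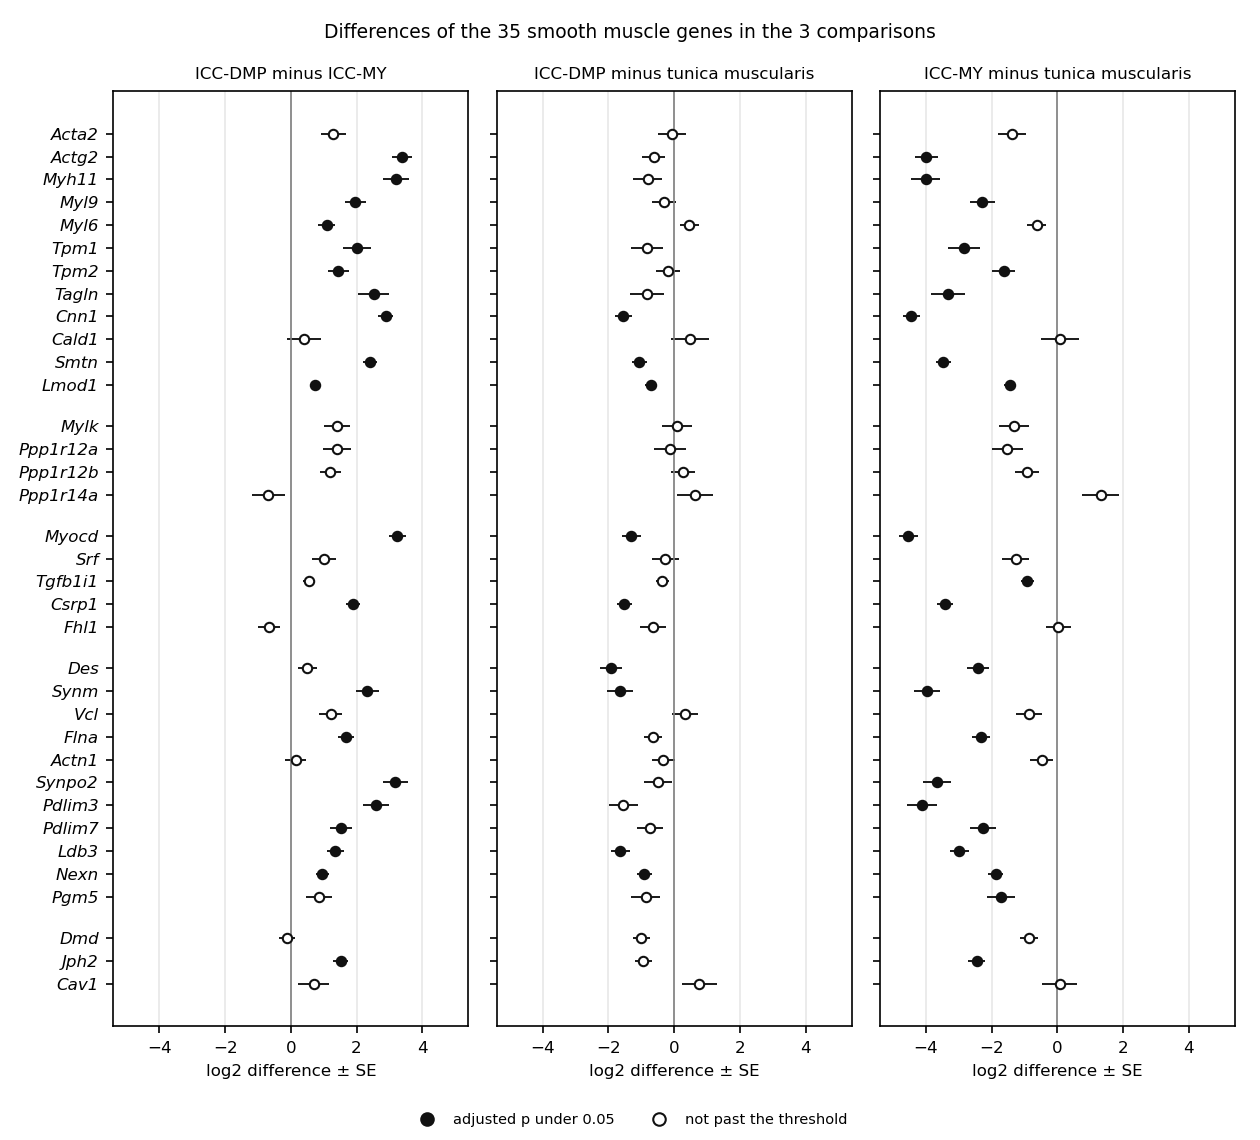
Points are log2 differences with their SE (horizontal axis) for each of the 35 genes in the 3 comparisons, filled where the adjusted p was under 0.05. There are 20 filled points to the right of 0 for ICC-DMP minus ICC-MY, and 9 and 22 to the left of 0 for ICC-DMP and ICC-MY minus tunica muscularis.

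Of the 12 genes of the thick and thin filaments, 10 were higher in ICC-DMP than in ICC-MY, 3 fell in ICC-DMP against tissue and 9 fell in ICC-MY against tissue. Actg2 read 11.82, 12.07 and 12.11 in ICC-DMP and 7.98, 8.96 and 8.92 in ICC-MY, against 12.19 and 13.05 in tunica muscularis. All ICC-MY arrays were below every other array. The level was 10.4-fold higher in ICC-DMP than in ICC-MY (log2 3.38, SE 0.31, adjusted p = 0.000293) and 15.9-fold lower in ICC-MY than in tissue (log2 -3.99, SE 0.35, adjusted p = 0.000154). ICC-DMP differed from tissue by -0.61 (SE 0.35, adjusted p = 0.393), and by -0.72 with the replicate block (adjusted p = 0.0496). Myh11, the motor heavy chain that marks differentiated smooth muscle, read 10.90, 11.31 and 10.70 in ICC-DMP and 7.44, 8.20 and 7.65 in ICC-MY, against 10.97 and 12.57 in tissue. It was 9.24-fold higher in ICC-DMP than in ICC-MY (adjusted p = 0.00139) and 16.1-fold below tissue in ICC-MY (adjusted p = 0.000551). Against tissue, ICC-DMP overlapped the lower tissue array and differed by -0.80 (adjusted p = 0.381), or by -1.60 without tissue replicate 1. A dimmer Myh11 probe set was lower in ICC-DMP than in tissue (log2 -1.25, adjusted p = 0.025).

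Calponin (Cnn1), an actin-binding inhibitor of myosin ATPase activity, separated the 3 groups without overlap. It read 9.49, 9.60 and 9.42 in ICC-DMP and 6.32, 6.89 and 6.62 in ICC-MY, against 10.66 and 11.44 in tunica muscularis. The difference was 2.89 between the ICC classes (SE 0.23, adjusted p = 0.000138), -1.55 for ICC-DMP against tissue (SE 0.26, adjusted p = 0.00573) and -4.44 for ICC-MY against tissue (SE 0.26, adjusted p = 1.76e-05), a fold of 21.7. Smoothelin (Smtn), a protein of contractile smooth muscle that associates with actin stress fibres, showed the same order. Its values were 8.03, 8.02 and 8.18 in ICC-DMP and 5.64, 5.39 and 5.96 in ICC-MY, against 8.81 and 9.45 in tissue. Smtn differed by 2.41 between the ICC classes (adjusted p = 0.000214), by -1.05 for ICC-DMP against tissue (adjusted p = 0.0231) and by -3.47 for ICC-MY against tissue (adjusted p = 3.95e-05). Its adjusted p for ICC-DMP against tissue was 0.0587 to 0.0856 when any 1 ICC-DMP array was left out and 0.119 without tissue replicate 2.

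Leiomodin (Lmod1), a nucleator of actin filaments, read 5.76, 5.66 and 5.77 in ICC-DMP and 4.73, 5.02 and 5.23 in ICC-MY, against 6.27 and 6.61 in tissue. It passed in all 3 comparisons, by 0.74 (adjusted p = 0.0303), -0.71 (adjusted p = 0.0487) and -1.45 (adjusted p = 0.00126). Between the ICC classes Lmod1 did not pass when any 1 ICC-DMP array was left out (0.0945 to 0.121), nor without replicate 1 (0.0569) or 2 (0.0834) of ICC-MY. For ICC-DMP against tissue it lost its call without any of the ICC-DMP or tissue arrays (0.055 to 0.211) and without ICC-MY replicate 2 (0.0771). That call was also lost with median centring (0.0647), a minimum mean of 5 (0.0971) and a trend in eBayes (0.0559), and the one between the ICC classes with the minimum mean (0.0503).

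Transgelin (Tagln), an actin-bundling protein used as an early smooth muscle marker, read 11.22, 11.70 and 10.89 in ICC-DMP and 8.23, 9.72 and 8.30 in ICC-MY, against 11.48 and 12.70 in tissue. The difference between the ICC classes was 2.52 (SE 0.46, adjusted p = 0.0111), with an adjusted p of 0.0509 without ICC-DMP replicate 1 and 0.0578 without replicate 2. Against tissue, Tagln differed by -0.82 in ICC-DMP (adjusted p = 0.466) and by -3.34 in ICC-MY (adjusted p = 0.00325).

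The tropomyosins lie along the actin filament and gate its contact with myosin. Tpm1 read 11.42, 11.63 and 10.60 in ICC-DMP and 8.77, 9.97 and 8.87 in ICC-MY, against 11.48 and 12.62 in tissue. Tpm2 read 12.81, 13.13 and 13.16 in ICC-DMP and 11.01, 11.89 and 11.86 in ICC-MY, against 12.73 and 13.71 in tissue. For both, all ICC-MY arrays lay below the other 2 groups. Tpm1 differed by 2.01 between the ICC classes (adjusted p = 0.0235) and Tpm2 by 1.44 (adjusted p = 0.0252). Both were below tissue in ICC-MY, Tpm1 by 2.84 (adjusted p = 0.00515) and Tpm2 by 1.63 (adjusted p = 0.0171). ICC-DMP differed from tissue by -0.83 for Tpm1 (adjusted p = 0.408) and by -0.19 for Tpm2 (adjusted p = 0.87). Between the ICC classes Tpm1 did not pass without ICC-DMP replicate 1 or 2, or ICC-MY replicate 1 or 3 (0.0528 to 0.106), and Tpm2 did not without any 1 ICC-DMP array (0.068 to 0.105). Tpm2 in ICC-MY against tissue had an adjusted p of 0.107 without tissue replicate 2 and 0.0755 when only these 2 groups were fitted. With a trend in eBayes Tpm2 passed in neither comparison (0.147 and 0.102).

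The regulatory light chain (Myl9), the substrate of the kinase, read 12.74, 12.76 and 12.26 in ICC-DMP and 10.15, 11.20 and 10.51 in ICC-MY, against 12.43 and 13.37 in tissue. It differed by 1.97 between the ICC classes (SE 0.33, adjusted p = 0.00689), by -0.31 for ICC-DMP against tissue (adjusted p = 0.76) and by -2.28 for ICC-MY against tissue (adjusted p = 0.00403). The essential light chain (Myl6), which non-muscle cells use as well, read 7.11, 7.46 and 7.20 in ICC-DMP and 5.97, 6.51 and 6.01 in ICC-MY, against 6.35 and 7.24 in tissue. It was 1.09 higher in ICC-DMP than in ICC-MY (adjusted p = 0.0331), a call lost without any 1 ICC-DMP array (0.0917 to 0.142) or without replicate 1 (0.0724) or 3 (0.111) of ICC-MY. Against tissue it differed by 0.46 in ICC-DMP (adjusted p = 0.447) and by -0.63 in ICC-MY (adjusted p = 0.221), or by -1.08 without tissue replicate 1. Further Myl6 probe sets that name other loci besides it were not used.

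Smooth muscle α-actin (Acta2) and caldesmon (Cald1) were the 2 filament genes that passed in none of the 3 comparisons on their brightest probe set. Acta2 read 13.14, 13.55 and 13.32 in ICC-DMP and 11.32, 12.61 and 12.19 in ICC-MY, against 12.82 and 14.00 in tissue. The ICC-DMP arrays lay between the 2 tissue arrays, and all ICC-MY arrays lay below both other groups. The highest values on any array lay between 13.70 and 14.02, so Acta2 read near the top of the range. Whether differences are compressed there was not tested, for Acta2 or for Tpm2, Myl9, Cald1, Mylk and Cav1, so a small difference on these probe sets does not show equal levels. Its difference was 1.30 between the ICC classes (SE 0.38, adjusted p = 0.0867), -0.07 for ICC-DMP against tissue (adjusted p = 0.965) and -1.37 for ICC-MY against tissue (adjusted p = 0.0762). With the replicate block the first had an adjusted p of 0.00202, and the last was -1.40 (adjusted p = 0.00253). Caldesmon, which binds actin and calmodulin, read 12.60, 13.14 and 12.88 in ICC-DMP and 11.47, 13.20 and 12.73 in ICC-MY, against 11.59 and 13.19 in tissue. The 3 groups overlapped, and the differences were 0.41 (SE 0.51), 0.48 (SE 0.57) and 0.08 (SE 0.57), with adjusted p of 0.76 to 0.965. Dimmer probe sets of both genes did pass. One of Acta2, with values of 3.58 to 6.28, was 1.05 higher in ICC-DMP than in ICC-MY (adjusted p = 0.00766), and differed from tissue by -1.42 in ICC-DMP (adjusted p = 0.00173) and by -2.47 in ICC-MY (adjusted p = 0.000117). One of Cald1 was above tissue by 2.07 in ICC-DMP (adjusted p = 0.000192) and by 1.62 in ICC-MY (adjusted p = 0.000742).

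**Figure D3:**
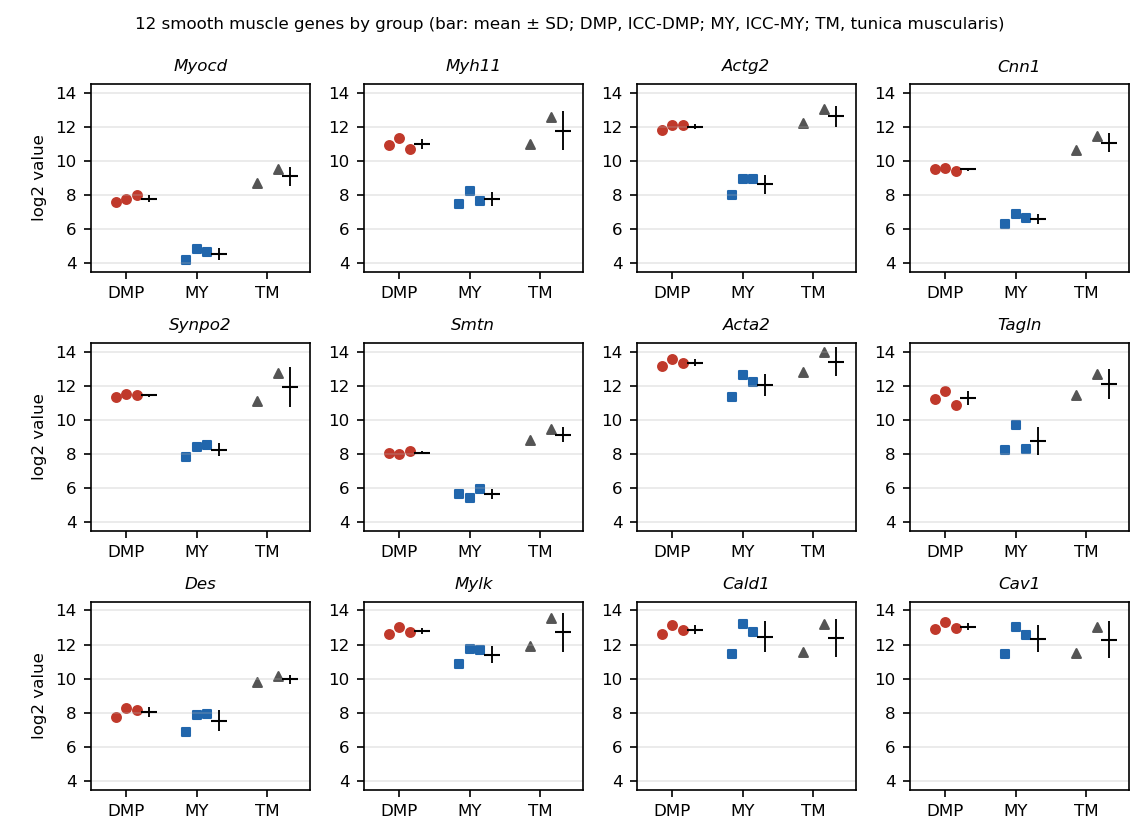
Panels show the log2 value (vertical axis) of 12 smooth muscle genes on each array of ICC-DMP (DMP, red), ICC-MY (MY, blue) and tunica muscularis (TM, grey), with the mean and SD beside the points. Myocd, Cnn1 and Smtn separate all 3 groups, Des separates tissue from both ICC classes, and Cald1 and Cav1 overlap across groups.

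None of the 4 genes of the light chain kinase and phosphatase passed in any of the 3 comparisons, although 3 of them between the ICC classes, 0 in ICC-DMP against tissue and 4 in ICC-MY against tissue had an unadjusted p under 0.05 in limma. Over all genes the shares at that threshold were 18.5%, 21.7% and 24.6%. These calls rest on the brightest probe set of each gene, and dimmer ones of Mylk, Ppp1r12a and Ppp1r12b passed, as given with the other probe sets. Myosin light chain kinase (Mylk) read 12.65, 13.01 and 12.76 in ICC-DMP and 10.83, 11.72 and 11.66 in ICC-MY, against 11.92 and 13.53 in tissue. The ICC-DMP arrays were above all ICC-MY arrays and lay between the tissue arrays. Mylk differed by 1.40 between the ICC classes (SE 0.41, adjusted p = 0.0804), by 0.08 for ICC-DMP against tissue (adjusted p = 0.963) and by -1.32 for ICC-MY against tissue (adjusted p = 0.103). With the replicate block the adjusted p between the classes was 0.00369, and ICC-MY was 1.37 below tissue (adjusted p = 0.00767).

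The myosin phosphatase targeting subunits (Ppp1r12a and Ppp1r12b) bring the phosphatase to myosin. Ppp1r12a read 11.75, 12.23 and 11.88 in ICC-DMP and 10.07, 11.20 and 10.42 in ICC-MY, against 11.28 and 12.89 in tissue. Ppp1r12b read 9.45, 9.46 and 9.65 in ICC-DMP and 7.63, 8.59 and 8.75 in ICC-MY, against 8.85 and 9.65 in tissue. For both, every ICC-DMP array was above every ICC-MY array, by a mean of 1.39 (adjusted p = 0.0994) and 1.19 (adjusted p = 0.0593), with adjusted p of 0.00207 and 0.00485 under the replicate block. Against tissue, ICC-DMP differed by -0.13 for Ppp1r12a (adjusted p = 0.943) and by 0.27 for Ppp1r12b (adjusted p = 0.793). Under the block ICC-MY was below tissue, by 1.47 for Ppp1r12a (adjusted p = 0.003) and 1.06 for Ppp1r12b (adjusted p = 0.0154). The phosphatase inhibitor Ppp1r14a, which protein kinase C activates, read 9.29, 10.01 and 9.32 in ICC-DMP and 9.23, 11.20 and 10.25 in ICC-MY, against 8.36 and 9.45 in tissue. Unlike most of the set it had its highest mean in ICC-MY. It differed by -0.69 between the ICC classes (adjusted p = 0.582), by 0.63 for ICC-DMP against tissue (adjusted p = 0.642) and by 1.32 for ICC-MY against tissue (SE 0.56, adjusted p = 0.187), or 1.37 with the block (adjusted p = 0.00748).

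Of the 5 genes that act in transcription, 2 were higher in ICC-DMP than in ICC-MY, 2 fell in ICC-DMP against tissue and 3 fell in ICC-MY against tissue. Myocardin (Myocd), the coactivator of serum response factor in smooth and cardiac muscle, read 7.57, 7.79 and 7.99 in ICC-DMP and 4.16, 4.83 and 4.65 in ICC-MY, against 8.67 and 9.49 in tunica muscularis. The groups did not overlap, and the ICC-MY values were close to the array medians. The files hold no detection calls, so the folds of Myocd against ICC-MY may be lower bounds. Myocd was 9.44-fold higher in ICC-DMP than in ICC-MY (log2 3.24, SE 0.26, adjusted p = 0.000141) and 23.3-fold lower in ICC-MY than in tissue (log2 -4.54, SE 0.29, adjusted p = 2.8e-05). ICC-DMP was 1.30 below tissue (SE 0.29, adjusted p = 0.0231), with an adjusted p of 0.091 without ICC-DMP replicate 1, 0.0776 without ICC-DMP replicate 2 and 0.119 without tissue replicate 2.

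Serum response factor (Srf), the DNA-binding partner of myocardin, read 8.95, 8.97 and 9.41 in ICC-DMP and 7.47, 8.57 and 8.29 in ICC-MY, against 8.78 and 9.97 in tissue. Its difference between the ICC classes was 1.0 (SE 0.37, adjusted p = 0.175; 0.019 with the replicate block), and that of ICC-DMP from tissue was -0.26 (adjusted p = 0.837). ICC-MY differed from tissue by -1.26 (adjusted p = 0.0877), or by -1.38 with the block (adjusted p = 0.00657). Csrp1, a LIM protein that bridges serum response factor and GATA factors, read 5.71, 6.48 and 6.00 in ICC-DMP and 4.23, 4.22 and 4.04 in ICC-MY, against 7.42 and 7.75 in tissue. The ICC-MY values again lay at the array medians, so the differences of Csrp1 from ICC-MY may be lower bounds. Csrp1 differed by 1.90 between the ICC classes (SE 0.21, adjusted p = 0.000735), by -1.52 for ICC-DMP against tissue (adjusted p = 0.00402) and by -3.42 for ICC-MY against tissue (adjusted p = 4.34e-05).

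Tgfb1i1, a LIM adaptor of focal adhesions that also acts as a coactivator, read 10.18, 9.91 and 10.34 in ICC-DMP and 9.34, 9.52 and 9.90 in ICC-MY, against 10.48 and 10.51 in tissue. It was 0.91 below tissue in ICC-MY (SE 0.21, adjusted p = 0.021), with an adjusted p of 0.0634 without ICC-MY replicate 2, 0.0729 without tissue replicate 1 and 0.0918 without tissue replicate 2. Tgfb1i1 did not pass either with quantile normalization (0.0585), array weights (0.0806), a trend in eBayes (0.127), only these 2 groups (0.07) or without both narrow arrays (0.0647). Between the ICC classes it differed by 0.56 (adjusted p = 0.131; 0.0405 with the block), and ICC-DMP differed from tissue by -0.36 (adjusted p = 0.408). Fhl1, a LIM protein of muscle, read 10.97, 11.04 and 10.85 in ICC-DMP and 11.03, 12.09 and 11.73 in ICC-MY, against 10.98 and 12.19 in tissue. Its differences of -0.67, -0.64 and 0.03 did not pass (adjusted p = 0.387, 0.443 and 0.981), and ICC-DMP and ICC-MY overlapped only at ICC-MY replicate 1.

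Of the 11 genes of dense bodies, plaques and intermediate filaments, 7 were higher in ICC-DMP than in ICC-MY, 4 fell in ICC-DMP against tissue and 9 fell in ICC-MY against tissue. Desmin (Des), the muscle intermediate filament protein, read 7.74, 8.26 and 8.17 in ICC-DMP and 6.85, 7.89 and 7.91 in ICC-MY, against 9.78 and 10.16 in tunica muscularis. The ICC classes overlapped and differed by 0.51 (SE 0.30, adjusted p = 0.472). Both were below tissue, ICC-DMP by 1.92 (adjusted p = 0.00778; 0.0518 without tissue replicate 2) and ICC-MY by 2.42 (adjusted p = 0.0018). Synemin (Synm), which co-assembles with desmin, read 8.58, 8.36 and 8.27 in ICC-DMP and 5.68, 6.17 and 6.38 in ICC-MY, against 9.32 and 10.76 in tissue. It differed by 2.32 between the ICC classes (SE 0.35, adjusted p = 0.00394), by -1.64 for ICC-DMP against tissue (adjusted p = 0.032) and by -3.96 for ICC-MY against tissue (adjusted p = 0.000303). The call against tissue in ICC-DMP was lost without any 1 ICC-DMP array (0.0822 to 0.102), without tissue replicate 2 (0.103) and without ICC-MY replicate 2 (0.0521), and with the mean of its probe sets (0.0689).

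Synaptopodin 2 (Synpo2), an actin-bundling protein of dense bodies, read 11.35, 11.50 and 11.42 in ICC-DMP and 7.81, 8.41 and 8.50 in ICC-MY, against 11.09 and 12.73 in tissue. It was 9.06-fold higher in ICC-DMP than in ICC-MY (log2 3.18, SE 0.38, adjusted p = 0.00116) and 12.7-fold below tissue in ICC-MY (adjusted p = 0.000693). ICC-DMP lay between the tissue arrays and differed by -0.49 (adjusted p = 0.638), or by -1.30 without tissue replicate 1. Filamin A (Flna), an actin crosslinker, read 10.31, 10.29 and 10.38 in ICC-DMP and 8.20, 8.82 and 8.92 in ICC-MY, against 10.62 and 11.32 in tissue. It differed by 1.68 between the ICC classes (SE 0.24, adjusted p = 0.00314), by -0.64 for ICC-DMP against tissue (adjusted p = 0.211) and by -2.325 for ICC-MY against tissue (adjusted p = 0.000702).

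The PDZ and LIM domain proteins bind α-actinin. Pdlim3 read 9.07, 9.44 and 8.60 in ICC-DMP and 6.04, 6.94 and 6.36 in ICC-MY, against 9.85 and 11.30 in tissue. The groups did not overlap. Pdlim3 differed by 2.58 between the ICC classes (adjusted p = 0.00465), by -1.54 for ICC-DMP against tissue (adjusted p = 0.0686; -1.41 and 0.00617 with the block) and by -4.13 for ICC-MY against tissue (adjusted p = 0.000506). Without tissue replicate 1 the ICC-DMP difference was -2.27. Pdlim7 read 8.02, 7.75 and 8.62 in ICC-DMP and 6.06, 6.40 and 7.34 in ICC-MY, against 8.72 and 9.01 in tissue. It differed by 1.53 between the ICC classes (adjusted p = 0.0298), a call lost without any 1 ICC-DMP array (0.0542 to 0.107), ICC-MY replicate 1 (0.0577) or ICC-MY replicate 2 (0.101). Against tissue, Pdlim7 differed by -0.74 in ICC-DMP (adjusted p = 0.345; -1.04 and 0.00844 with the block) and by -2.27 in ICC-MY (adjusted p = 0.00535). Ldb3, which in striated muscle binds α-actinin at the Z-disc, read 6.12, 5.90 and 5.70 in ICC-DMP and 4.41, 4.39 and 4.86 in ICC-MY, against 7.07 and 8.02 in tissue. It passed in all 3 comparisons, by 1.36 (adjusted p = 0.0136), -1.64 (adjusted p = 0.00814) and -2.99 (adjusted p = 0.000274), the first with an adjusted p of 0.0717 without ICC-DMP replicate 1, 0.0595 without ICC-DMP replicate 2 and 0.0539 without ICC-MY replicate 2. With the mean of its probe sets the first was 0.37 (adjusted p = 0.126). Its ICC-MY values were also close to the array medians.

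Nexilin (Nexn), an actin-binding protein of adhesions, read 8.22, 8.29 and 7.99 in ICC-DMP and 7.25, 7.29 and 7.06 in ICC-MY, against 8.72 and 9.43 in tissue. It passed in all 3 comparisons, by 0.96 (adjusted p = 0.0203), -0.91 (adjusted p = 0.0366) and -1.87 (adjusted p = 0.000836). The first did not pass when replicate 1 or 2 of ICC-DMP, or replicate 2 or 3 of ICC-MY, was left out (0.0521 to 0.0967), and the second without any array of ICC-DMP, ICC-MY replicate 2 or 3, or tissue replicate 2 (0.0532 to 0.159). Nor did the second pass in a fit of these 2 groups alone (0.0631) or with a trend in eBayes (0.0586). Pgm5, a plaque protein that binds dystrophin, read 8.42, 9.17 and 8.42 in ICC-DMP and 7.80, 7.94 and 7.71 in ICC-MY, against 8.72 and 10.35 in tissue. ICC-MY was below tissue (log2 -1.72, SE 0.44, adjusted p = 0.0349), but not without ICC-DMP replicate 1 or 3, any ICC-MY array or tissue replicate 2 (0.056 to 0.14), nor with array weights (0.0525) or only these 2 groups (0.0963). Pgm5 differed by 0.85 between the ICC classes (adjusted p = 0.306) and by -0.86 for ICC-DMP against tissue (adjusted p = 0.324), or by -1.68 without tissue replicate 1.

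Vinculin (Vcl) and α-actinin (Actn1), which link actin to adhesions in many cell types, passed in none of the comparisons. Vcl read 11.61, 11.81 and 11.91 in ICC-DMP and 9.95, 10.72 and 11.03 in ICC-MY, against 10.82 and 12.06 in tissue. The ICC classes did not overlap and differed by 1.21 (adjusted p = 0.0891; 0.00513 with the block), and ICC-DMP differed from tissue by 0.34 (adjusted p = 0.762). With the block, Vcl in ICC-MY was 1.02 below tissue (adjusted p = 0.021), and without it the difference was -0.87 (adjusted p = 0.236). Actn1 read 10.67, 10.81 and 10.73 in ICC-DMP and 10.07, 11.04 and 10.64 in ICC-MY, against 10.53 and 11.60 in tissue, with differences of 0.15, -0.33 and -0.48 (adjusted p = 0.5 to 0.888).

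Of the 3 membrane genes, 1 was higher in ICC-DMP than in ICC-MY, 0 fell in ICC-DMP against tissue and 1 fell in ICC-MY against tissue. In each of the comparisons with tissue, 2 had an unadjusted p under 0.05 in limma, where 21.7% (ICC-DMP) and 24.6% (ICC-MY) of all genes did. Junctophilin 2 (Jph2), which holds the plasma membrane close to the sarcoplasmic reticulum, read 7.05, 7.18 and 7.54 in ICC-DMP and 5.50, 5.59 and 6.12 in ICC-MY, against 7.95 and 8.43 in tissue. It separated the groups without overlap. Jph2 differed by 1.52 between the ICC classes (SE 0.23, adjusted p = 0.00369), by -0.93 for ICC-DMP against tissue (adjusted p = 0.0523; -1.10 and 0.00269 with the block) and by -2.45 for ICC-MY against tissue (adjusted p = 0.000371). Its ICC-DMP difference from tissue passed without ICC-MY replicate 1 (adjusted p = 0.0413) or 3 (adjusted p = 0.0376).

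Dystrophin (Dmd), which ties actin to the matrix through its glycoprotein complex, read 8.22, 8.15 and 7.77 in ICC-DMP and 8.10, 8.30 and 8.12 in ICC-MY, against 8.59 and 9.49 in tissue. Both ICC classes lay below both tissue arrays. The differences from tissue were -1.0 in ICC-DMP (adjusted p = 0.0507) and -0.87 in ICC-MY (adjusted p = 0.0711), or -0.91 (adjusted p = 0.0311) and -0.79 (adjusted p = 0.0472) with the block. Without tissue replicate 1 they were -1.45 and -1.32. Between the ICC classes Dmd differed by -0.12 (SE 0.24, adjusted p = 0.876). Caveolin 1 (Cav1), the coat protein of caveolae, read 12.89, 13.31 and 12.95 in ICC-DMP and 11.45, 13.02 and 12.57 in ICC-MY, against 11.52 and 13.04 in tissue. Its groups overlapped and its differences of 0.70, 0.77 and 0.07 had SEs of 0.47 to 0.53 (adjusted p = 0.51 to 0.966).

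Several transcripts of a gene can be read by different probe sets, and 21 of the 35 genes had others beside the brightest. The control probe sets of β-actin read higher at its 3′ end than at its 5′ end, by 2.53 to 4.66 log2 units. This gap was widest on replicate 3 of ICC-DMP (4.66) and replicate 3 of ICC-MY (4.28). Why probe sets of a gene differed was not tested. The 35 genes had 76 probe sets, of which 41 were not used for the values above. Between the ICC classes, 12 of these 41 passed as higher and 0 as lower. Of the 10 genes higher in ICC-DMP that had another probe set, 6 had one that passed the same way and 0 had one that passed the opposite way. Csrp1, Jph2, Ldb3 and Myocd had others that did not pass. For ICC-DMP against tissue, 1 of the 5 such genes had another probe set that passed the same way, Des, Ldb3, Myocd and Synm had none, and 3 of the 41 others passed as higher and 7 as lower. For ICC-MY against tissue, 7 of 11 had one, Des, Jph2, Ldb3 and Myocd had none, and 2 of the 41 passed as higher and 14 as lower. None of these 5 and 11 genes had another probe set that passed the opposite way. Other probe sets were tested in a fit of all probe sets but the controls. For ICC-DMP against tissue, the 7 lower were of Acta2, Myh11, Tpm1, Mylk, Csrp1, Pdlim7 and Dmd. The 3 higher were of Cald1, Ppp1r12b and Dmd. Those of Myh11 (-1.25, adjusted p = 0.025) and Pdlim7 (-1.01, adjusted p = 0.041) belong to genes not called there. So does that of Tpm1 (-0.84, adjusted p = 0.0095), which read below the array medians. For Mylk, which did not pass on its brightest probe set, a dimmer one differed by 2.70 between the ICC classes and another by 0.92, and both passed. Against tissue, the first of these Mylk probe sets passed in ICC-MY only, at -3.20 (adjusted p = 0.0023). The second passed in both classes, at -1.43 in ICC-DMP and -2.35 in ICC-MY. Of Ppp1r12a, 2 dimmer probe sets were higher in ICC-DMP than in ICC-MY, by 1.35 (adjusted p = 0.0474) and 1.31 (adjusted p = 0.0252), and the second differed from tissue by -1.29 in ICC-MY (adjusted p = 0.0295). One of Ppp1r12b was 1.49 above tissue in ICC-DMP (adjusted p = 0.0051). One of Dmd was higher than tissue in ICC-DMP by 1.73 (adjusted p = 0.00215) and in ICC-MY by 2.12 (adjusted p = 0.000821). Another was lower than tissue in ICC-DMP, at -1.47 (adjusted p = 0.0304). The brightest Dmd probe set read lower than tissue in both classes without passing in the main fit. In the fit of all probe sets it passed as lower in ICC-DMP (adjusted p = 0.0436). The probe sets used for Acta2, Cald1 and Srf are of a kind that may match several related transcripts.

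**Figure D4:**
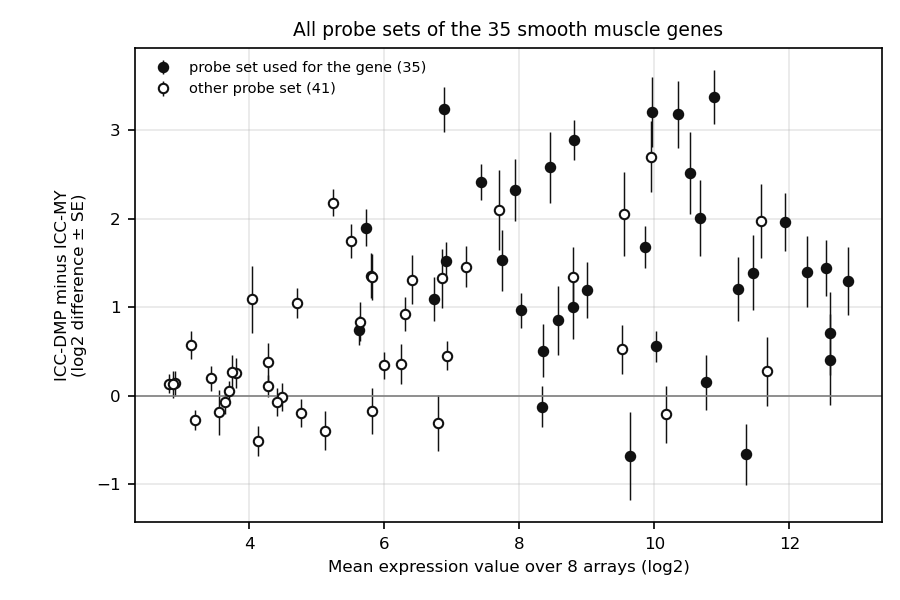
Each point is 1 of the 76 probe sets of the 35 genes, with its mean log2 value over the 8 arrays on the horizontal axis and its ICC-DMP minus ICC-MY log2 difference with SE on the vertical axis; filled points are the 35 used for the genes. The largest differences among the used probe sets lie at means between about 7 and 11, and several of the 41 others lie near 0 at low means.

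The families of these genes also have members that are not typical of smooth muscle, and 51 such paralogues were measured. Of these, 5 were higher and 2 lower in ICC-DMP than in ICC-MY, and the median difference was 0.06. Fhl2 (log2 2.98), caveolin 3 (Cav3, 2.45) and cardiac α-actin (Actc1, 2.10) were higher. Utrophin (Utrn), the ubiquitous relative of dystrophin, was lower by 1.99 (SE 0.21, adjusted p = 0.000532). It read 7.84, 8.07 and 7.75 in ICC-DMP and 9.58, 10.12 and 9.93 in ICC-MY, against 8.63 and 9.20 in tissue. The groups did not overlap, and ICC-MY was highest and ICC-DMP lowest. Against tissue, 2 paralogues were higher and 13 lower in ICC-DMP, with Fhl2 at 2.56, Pdlim1 at -2.35, Actc1 at -1.90 and Csrp2 at -1.83. In ICC-MY 2 were higher and 13 lower than in tissue, with Actc1 at -4.01, Cav3 at -3.45, Csrp2 at -2.85 and skeletal α-actin (Acta1) at -2.09. Over all genes 5.36% passed as higher and 3.30% as lower between the ICC classes. The shares were 3.72% and 7.32% in ICC-DMP against tissue, and 4.05% and 9.78% in ICC-MY against tissue. They also stand beside the counts of the roles above and of the lists and markers below.

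Among 31 measured partners in adhesion, the dystrophin complex and caveolae, 7 were higher and 2 lower in ICC-DMP than in ICC-MY, with a median of 0.46. Lims2 (1.85), a LIM adaptor of integrin-linked kinase, and Filip1l (1.65) were higher, while talin 2 (Tln2, -2.61) and integrin α8 (Itga8, -2.29) were lower. Against tissue, 0 were higher and 5 lower in ICC-DMP, and 2 were higher and 13 lower in ICC-MY. Sorbs2, an adaptor of stress fibres and adhesions, was lower than tissue in ICC-DMP by 2.57 and in ICC-MY by 3.72. Dystrobrevin α (Dtna) was lower by 1.57 and 2.91, and Lims2 by 1.06 and 2.91.

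Of 29 genes of contraction control, calcium handling and upstream regulation, 9 were higher and 2 lower in ICC-DMP than in ICC-MY. Phospholamban (Pln), which restrains the calcium pump of the sarcoplasmic reticulum, read 12.53, 12.94 and 12.59 in ICC-DMP and 8.93, 9.28 and 9.05 in ICC-MY, against 10.34 and 11.41 in tissue. It differed by 3.60 between the ICC classes (SE 0.27, adjusted p = 0.000107). The amine oxidase Aoc3 (3.0), the small heat shock protein Hspb6 (2.83) and the ryanodine receptor Ryr2 (2.40) were higher as well. Against tissue, 5 of these genes were higher and 3 lower in ICC-DMP, with Klf4 at 2.39 and Foxf1 at 2.03 above tissue, and Gata6 at -2.31 and Rgs4 at -2.0 below. Klf4 represses and Gata6 promotes smooth muscle gene expression. In ICC-MY 3 were higher and 11 lower than in tissue, with Rgs4 at -3.94, calsequestrin 2 (Casq2) at -3.84, Ryr2 at -2.91 and Hspb6 at -2.65.

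**Figure D5:**
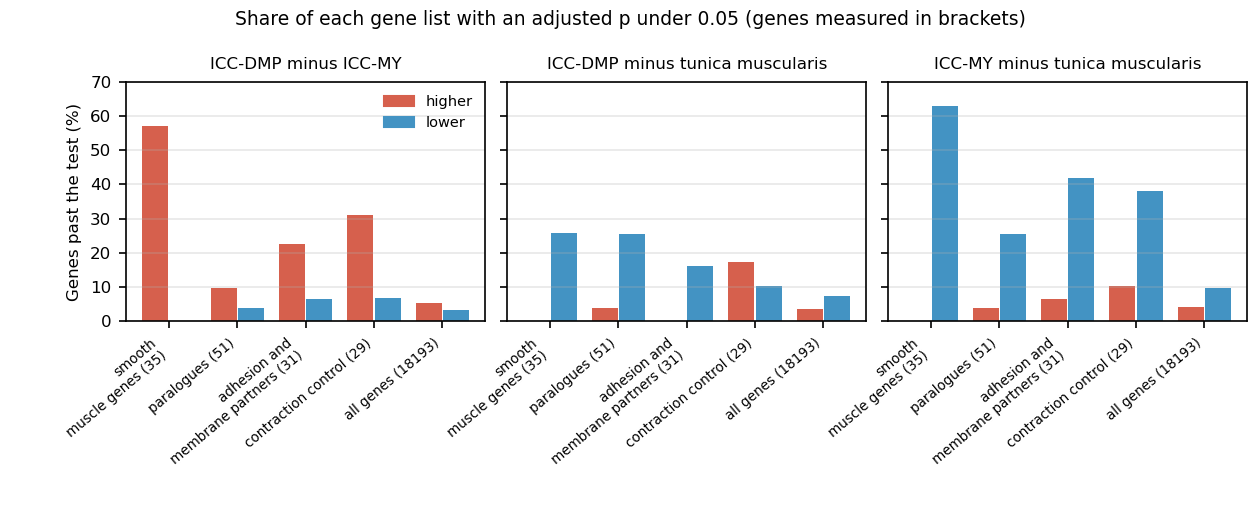
Bars give the percentage of measured genes (vertical axis) that passed as higher (red) or lower (blue) in each comparison, for the 35 smooth muscle genes, 51 paralogues, 31 adhesion and membrane partners, 29 genes of contraction control and all 18193 genes. The smooth muscle genes have no red bar in the 2 comparisons with tissue and no blue bar between the ICC classes.

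Markers of other cells that also express some of the 35 genes are set beside them. The 9 markers of pericytes and vascular mural cells averaged 6.92 to 7.17 in ICC-DMP and 6.88 to 7.55 in ICC-MY, against 6.49 to 6.94 in tissue. Of these, 0 were higher and 2 were lower in ICC-DMP than in ICC-MY, namely Pdgfrb (log2 -1.47, adjusted p = 0.0262) and Notch3 (log2 -1.40, adjusted p = 0.00215). The other 7 did not pass. Of the 9 differences, 5 lay below 0 and 4 above, with a median of -0.27. The 8 skeletal muscle markers averaged 3.76 to 3.80 in ICC-DMP and 3.47 to 3.59 in ICC-MY, against 4.09 to 4.38 in tissue. Of these, 1 was higher in ICC-DMP than in ICC-MY, muscle creatine kinase (Ckm, by 2.21), and 1 was lower, troponin I of fast muscle (Tnni2, log2 -0.64, adjusted p = 0.0282), with a median of -0.06 over the 8. The 6 markers of fibroblasts and PDGFRA cells averaged 10.8 to 11.2 in ICC-DMP and 9.81 to 10.7 in ICC-MY, against 10.98 to 12.1 in tissue. Of these, 1 was higher in ICC-DMP than in ICC-MY, Pdgfra itself, by 2.10 (SE 0.41, adjusted p = 0.0155). The 35 contractile genes averaged 9.77 to 9.98 in ICC-DMP and 7.95 to 8.70 in ICC-MY, against 9.94 to 10.9 in tissue. No list of smooth muscle markers outside the set was drawn up, and the part of smooth muscle RNA in the ICC values was not tested.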

How the data were processed

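Total RNA was amplified in 2 rounds from about 50 ng and labelled with biotin, per the labels' protocols. The authors deposited a log2 value for every probe set on every array. Per the submitters' processing notes, the tools were RMA and limma, with no version or role. The sources used here do not say whether the arrays were normalized together, and no further normalization was applied.

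Of 45101 probe sets, 64 controls were left out; by the platform annotation 34945 hold 1 gene name, 932 hold more and 9160 hold none. Each of 18193 genes took the probe set with the highest mean among those naming it alone (9010 genes had several). Groups are those of the titles. The fit used limma 3.58.1 (lmFit, contrasts.fit and eBayes) under R 4.3.3 (5 residual and 3.17 prior degrees of freedom), 2-sided, with Benjamini-Hochberg adjustment over 18193 genes and a threshold of 0.05. The script was tested on simulated data. The files hold no detection calls, and the number of arrays limits the precision. The titles describe the replicates as biological but name no animal, culture or pool behind them, so p-values measure the spread between these samples.

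The labels number the replicates in each group without saying what a number stands for. Deviations from group means correlated between same-numbered arrays at 0.29 to 0.50 (ICC-DMP with ICC-MY, 3 pairs), 0.16 to 0.32 (ICC-DMP with tissue, 2 pairs) and 0.58 to 0.61 (ICC-MY with tissue, 2 pairs). Since the labels do not say that a number pairs samples, the block was fitted as an alternative. With it 27, 14 and 30 of the 35 genes passed in the 3 comparisons, in their order above. The fit without the block is the main one, and blocked values stand where they change a call.

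The 35 genes and the other gene lists were chosen with earlier results of these data known. All 35 are named; of each other list, up to 4 called genes with the largest difference per comparison. Alternatives were the replicate block, quantile normalization, median centring, the mean of a gene's probe sets, each other probe set, a minimum mean of 5, array weights, leaving out the 2 narrow arrays, fitting only the 2 groups compared, a trend in eBayes, and leaving out each array. Promoter windows are from RefSeq (GRCm38.p6).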

Additional observations from a re-analysis of the deposited data

How the results depend on the processing

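Over 17 alternative settings, 12 of the 20 calls of the contractile genes between the ICC classes, 3 of the 9 for ICC-DMP against tunica muscularis (Cnn1, Csrp1 and Ldb3) and 19 of the 22 for ICC-MY against tunica muscularis passed in every one. The replicate block lost 0 of these calls in each comparison and added 7, 5 and 8. Between the ICC classes, 1577 genes passed in the main setting, and 2646 with array weights, 2556 with quantile normalization, 2617 with the replicate block and 2630 without both narrow arrays; leaving out 1 array gave 991 to 1840. The main split was 976 higher and 601 lower, against 1282 and 1274 with quantile normalization, 1358 and 1288 with array weights, 1228 and 1402 without both narrow arrays, and 872 and 968 without ICC-MY replicate 1. The 20 contractile genes became 12 to 25 when 1 array was left out. For ICC-DMP against tissue the 2009 genes became 1263 with a minimum mean of 5, which tests fewer genes, 3124 with quantile normalization and 1264 to 2480 without 1 array. The 9 contractile genes became 20 with quantile normalization (1 higher, 19 lower), 14 with the replicate block, 21 without both narrow arrays and 3 to 13 without 1 array. For ICC-MY against tissue the 2516 genes became 1520 when only these 2 groups were fitted, which leaves fewer samples, and 3916 with quantile normalization; the 22 contractile genes stayed between 19 and 30. Where no construction is named, the cause was not tested.

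Signs turned, where the value passed in 1 of the 2 settings, as follows. Without both narrow arrays, which leaves 1 tissue array, Mylk in ICC-DMP against tissue was -0.73. On other probe sets, ICC-DMP minus ICC-MY was -0.0175 for Tpm2, -0.0709 and -0.19 for Ldb3 and -0.20 for Jph2. ICC-DMP minus tissue was -1.43 for Mylk, 0.0382 for Myocd, 0.0614 for Ldb3 and 1.73 for Dmd, and ICC-MY minus tissue was 0.0052 for Tpm2, 0.13 for Ldb3, 2.12 for Dmd and 0.33 for Jph2. Over the 8 arrays these probe sets averaged 4.49 for Tpm2, 3.64 and 3.55 for Ldb3, 4.76 for Jph2 and 3.81 for Myocd. Those means lie near or below the array medians of 4.18 to 4.31, so these turns may carry little signal. The means were 6.30 for Mylk and 5.12 for Dmd. Another 12, 33 and 18 values in the 3 comparisons turned sign without passing in either setting. Fhl1 was lower in ICC-DMP than in ICC-MY under quantile normalization (-0.93, adjusted p = 0.00201), and Ppp1r14a was 1.82 higher in ICC-MY than in tissue without ICC-MY replicate 1 (adjusted p = 0.0299).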
